A study of Mus musculus with 10 samples.

Results

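Genes of major histocompatibility complex (MHC) class II antigen presentation and of dendritic cells were followed in knee cartilage of mice with and without the microRNA gene Mir324. The 10 genes, chosen by symbol, were H2-Aa, H2-Ab1, H2-Eb1, H2-DMa, Cd74, Ciita, Siglech, Flt3, Xcr1 and Irf8, and all were found among the 35705 genes to which the deposited transcripts were summed. RNA sequencing libraries were made from the medial knee cartilage cap of 10 untreated mice, 1 library per mouse, of which 5 were wild-type controls and 5 were labelled Mir324-null. The labels give the cell type as chondrocyte, but whole tissue was ground. They do not give the strain, age or sex of the mice, or whether the null allele acts in all tissues. Values are TPM (kallisto's transcript abundance), which is relative to the total of a library after allowing for transcript length, so the read depth behind each value is unknown.

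Class II molecules are pairs of an alpha and a beta chain that display peptides from engulfed or membrane proteins to CD4 T cells. They are made mainly by dendritic cells, B cells and some macrophages, and Ciita, the class II transactivator, switches on their genes together. In the cell the pair first binds the invariant chain, encoded by Cd74, and the H2-DM molecule later exchanges the remaining invariant chain fragment for peptide. Dendritic cells arise from marrow progenitors that carry the Flt3 receptor. The transcription factor Irf8 is needed for the type 1 conventional subset, marked by Xcr1, and Siglech is a surface receptor of plasmacytoid dendritic cells, the main source of type I interferon.

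Class II promoters are known for shared sequence boxes, where factors of the RFX family bind an X box and the factor NF-Y binds a Y box close to the start of transcription. Promoter windows of 300 bases, 250 before and 50 after the start, from RefSeq (GRCm38.p6) were used for 7 of the 10 genes, namely H2-Aa, H2-Eb1, H2-DMa, Siglech, Flt3, Xcr1 and Irf8. They were searched on both strands for GCAAC, letters of the X box, and TGATTGG, letters of the Y box. GCAAC followed on the same strand by TGATTGG after 15 to 35 bases was found for H2-Aa and H2-Eb1. It was also found for H2-Oa, H2-Ob and H2-Eb2 among 10 other genes of class II molecules and loading, against 67 of all 32851 promoter windows (0.204%). Each counted regardless of the other, GCAAC was in 35.2% and TGATTGG in 7.82% of all windows. The 5 stretches are shown 5′ to 3′ with both sets of letters in capitals, so that the similar order and spacing can be seen. A stretch of Irf8, from the 1 of its 2 windows that held TGATTGG, without GCAAC, is added.
H2-Aa, chr17:34287859-34287912, minus strand: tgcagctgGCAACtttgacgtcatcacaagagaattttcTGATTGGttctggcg
H2-Eb1, chr17:34305768-34305820, plus strand: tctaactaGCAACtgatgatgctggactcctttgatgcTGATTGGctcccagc
H2-Oa, chr17:34092295-34092348, plus strand: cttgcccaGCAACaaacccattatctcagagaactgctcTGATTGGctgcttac
H2-Ob, chr17:34238810-34238860, plus strand: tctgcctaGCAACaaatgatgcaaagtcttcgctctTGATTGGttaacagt
H2-Eb2, chr17:34325535-34325587, plus strand: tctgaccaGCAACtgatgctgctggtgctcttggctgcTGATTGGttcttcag
Irf8, chr8:120736190-120736249, plus strand: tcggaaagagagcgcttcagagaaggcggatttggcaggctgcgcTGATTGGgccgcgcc
Between the capitals lay 26 bases in H2-Aa and H2-Oa, 25 in H2-Eb1 and H2-Eb2 and 23 in H2-Ob. The windows of Siglech and Flt3 and 1 of the 2 windows of H2-DMa held GCAAC without TGATTGG, and that of Xcr1 and the other window of Irf8 held neither. Among the other class II genes, H2-DMb1 and H2-DMb2 held TGATTGG without GCAAC, like the window of Irf8 shown. Neither window of H2-DMa covers position 34135628, the start of the 1108-base transcript that held 78.3% to 89.9% of its TPM. A match of letters is a description and does not show that a factor binds there.

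Because the deleted gene encodes a microRNA, the 3′ UTR of each member was searched for the sequence complementary to bases 2 to 8 of either mature strand, the stretch through which microRNAs recognise their targets. The site for miR-324-5p, GGGATGC, was in H2-DMa, Irf8 and Cd74, and that for miR-324-3p, GGCAGTG, was in Xcr1. Among 12645 protein-coding genes tested that have a 3′ UTR, 8.46% held the first site and 15.3% the second. The search used the longest 3′ UTR of each gene. In H2-DMa that UTR belongs to a 2005-base transcript with at most 2.27% of the TPM of the gene, and its 1108-base and 1658-base coding transcripts lacked the site. In Cd74 the site was in all 3 coding transcripts with a 3′ UTR, including the 1224-base transcript that held 78.6% to 83.5% of the gene, and in Irf8 in the 2847-base transcript with 86.2% to 92.6%. The sites of Irf8 and Xcr1 are shown as examples for the 2 mature strands, with the flanking bases in lower case and the site in capitals.
Irf8, bases 138 to 144 of its 1522-base 3′ UTR: cccacagaGGGATGCgctcctgc
Xcr1, bases 3043 to 3049 of 3367: gaaaataaGGCAGTGtgaggagc
The change of these genes between genotypes is given with the other members below, and a match does not show that the site is used.

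Libraries held between 13386 and 14299 genes at 1 TPM or more, and wild-type replicate 1 lay apart from the others on the first principal component (-54.8, against -12.1 to 30.1 for the other 9). Haemoglobin genes took up 11.2% to 19.7% of the TPM of wild-type and 15.8% to 26.2% of that of null libraries, which lowers all other TPM values in a library. Chondrocyte markers were present, their 10 genes summing to 368 to 1078 TPM in wild-type mice, and 296 to 604 TPM in the Mir324-null mice, although Matn1, Matn3 and Col9a1 averaged under 1 TPM. Of the marker lists for other cells, the osteoblast and osteocyte genes summed to 5407 to 12907 TPM in wild-type mice, and 3081 to 6146 TPM in the Mir324-null mice, and the 7 neutrophil genes to 55632 to 109003 TPM and 54585 to 111430 TPM. In bulk tissue, fewer cells of a type and less RNA per cell cannot be told apart.

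The level of the members was highest for the class II chains and their invariant chain and lowest for Xcr1. Cd74 was the most abundant at a mean of 806 TPM over the 10 mice, above 98.8% of the genes tested. It was followed by the alpha chain gene H2-Aa (401 TPM) and the beta chain genes H2-Ab1 (311 TPM) and H2-Eb1 (286 TPM). This order of the first 4 held in all 10 mice, with a ratio of Cd74 to H2-Aa of 1.74 to 2.12. Irf8 (59.97 TPM) and H2-DMa (52.4 TPM) did not differ beyond their spread, Irf8 being the higher in 8 of 10 mice. Siglech averaged 14.7 TPM and was above Flt3 (4.52 TPM) in all 10 mice. Flt3 and Ciita (4.21 TPM) could not be ordered, since each was the higher in 5 mice. Xcr1 was the lowest at 0.249 TPM. It was the 1 member that failed the filter of 1 TPM on average and was not tested among all genes. In TPM, H2-Aa was 67.8 to 119.9 times as abundant as Ciita in the same mouse.

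**Figure D1:**
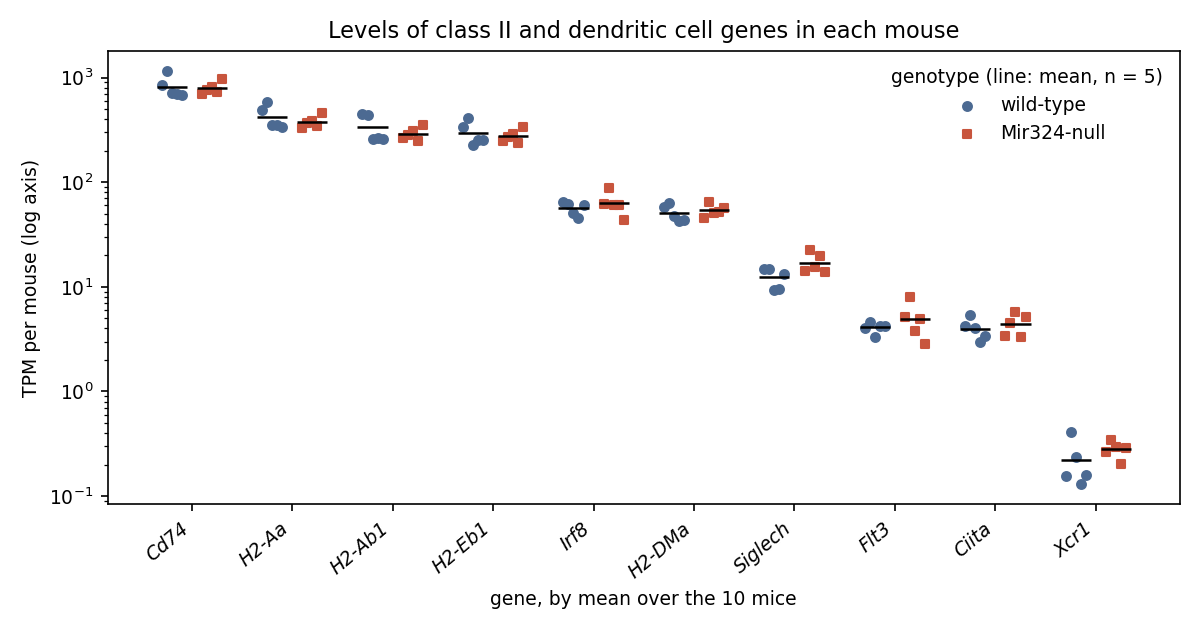
TPM of each member (log axis) in every mouse, with circles for wild-type, squares for Mir324-null and a line at the mean of 5 mice. Genes are ordered by their mean over the 10 mice, and the genotypes overlap for all 10 genes.

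Between genotypes, none of the members passed the test across all genes. The comparison used limma on log2(TPM + 1) with Benjamini-Hochberg adjustment over the 13841 genes that reached 1 TPM on average, a threshold of 0.05 on the adjusted p, and 5 mice per group. Of the 9 members tested, 0 were called, as were 0 of all genes (0%). At an unadjusted p under 0.05 there was 1 member, Siglech, which was higher in null mice. Among all genes, 11.6% had an unadjusted p under 0.05 and 4.28% did so with a higher level in null mice (592 genes, beside 1011 lower), so 1 of 9 is near this background. Scaling by median ratios gave 914 such genes higher and 860 lower, quantile normalization gave 884 and 929, and rescaling without the haemoglobin genes gave 1219 and 578. Of the members tested, 5 had a higher and 4 a lower mean in null mice, beside 5534 higher and 8307 lower of all genes tested. The median difference of the members was 0.086 on the log2 scale, beside a median of -0.045 over all genes tested. The groups overlapped for all 10 members, while 1.94% of all genes tested did not overlap.

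The class II chains differed by less than the spread between mice. H2-Aa (chromosome 17, 34282744 to 34287823, minus strand, in GRCm38) had 493, 589, 349, 354 and 338 TPM in wild-type mice 1 to 5 and 328, 365, 389, 345 and 458 TPM in null mice 1 to 5. Wild-type mice 1 and 2 were the 2 highest of all, the other wild-type mice lay among the null mice, and null mouse 5 was the highest of its group. Its difference was -0.14 on the log2(TPM + 1) scale (SE 0.161, 95% interval -0.50 to 0.21, limma adjusted p 0.811), and it was -0.017 without wild-type replicate 2. H2-Ab1 (chromosome 17, 34257689 to 34269419, plus strand), the beta chain that pairs with H2-Aa, followed the same mice. It had 447, 437, 256, 266 and 260.1 TPM in wild-type mice 1 to 5, against 265, 279.6, 307, 245 and 351 TPM in null mice 1 to 5. The difference was -0.17 (SE 0.181, interval -0.56 to 0.23, limma adjusted p 0.807), and it was -0.047 without wild-type replicate 1.

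H2-Eb1 (chromosome 17, 34305867 to 34316674, plus strand), the beta chain of the other class II isotype, had 339.9, 409, 228, 251 and 252 TPM in wild-type mice 1 to 5. In null mice it had 250.0, 271, 291, 238 and 334 TPM. Wild-type mice 1 and 2 and null mouse 5 were again the 3 highest. The difference was -0.071 (SE 0.160, interval -0.42 to 0.28, limma adjusted p 0.928), and its sign turned without wild-type replicate 2 (0.054). The gene of the partner alpha chain, H2-Ea-ps, is not transcribed in mice of the b haplotype such as C57BL/6. It was listed at 0 in all 10 libraries, and this gene was looked up after the values of the members had been seen.

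The genes that act on the class II chains after their synthesis varied over a similar range. Cd74 (chromosome 18, 60803848 to 60812652, plus strand), a carrier of a miR-324-5p site, had 857, 1147, 710.1, 694 and 679.5 TPM in wild-type mice 1 to 5, against 696, 766, 813, 729 and 973 TPM in null mice 1 to 5. Wild-type mouse 2 stood highest, followed by null mouse 5 and wild-type mouse 1. The difference of Cd74 was -0.019 (SE 0.149, interval -0.35 to 0.31, limma adjusted p 0.979), and its sign turned with the scaling, to 0.044 after median ratio scaling. H2-DMa (chromosome 17, 34119541 to 34139101, plus strand), the alpha chain of the peptide exchange molecule, had 57.9, 63.1, 47.1, 42.9 and 43.6 TPM in wild-type mice. It had 45.3, 64.0, 51.1, 51.4 and 57.2 TPM in null mice, a difference of 0.086 (SE 0.132, interval -0.20 to 0.37, limma adjusted p 0.878), and 0.022 without Mir324-null replicate 2. Here null mouse 2 and wild-type mouse 2 were the 2 highest.

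Ciita (chromosome 16, 10480059 to 10528418, plus strand) had 4.23, 5.32, 4.04, 2.95 and 3.40 TPM in wild-type mice. In null mice it had 3.40, 4.49, 5.73, 3.35 and 5.16 TPM. Each genotype held mice at both ends of the range, and the difference of 0.12 (SE 0.173, interval -0.26 to 0.50, limma adjusted p 0.868) was below the spread. Leaving out Mir324-null replicate 3 gave 0.035, and leaving out wild-type replicate 2 gave 0.21. Ciita has alternative promoters, of which the most upstream is known for use in dendritic cells and macrophages, the next in B cells and plasmacytoid dendritic cells, and the most downstream after interferon gamma. The annotated transcripts began in 3 places, at 10480059 to 10480164, at 10488178 to 10488279 and at 10489746 to 10489783. Those of the middle start held 79.1% to 96.5% of the TPM of Ciita in each mouse, with 3.48 ± 0.819 TPM in wild-type mice, and 3.80 ± 0.895 TPM in the Mir324-null mice (mean ± SD, n = 5). Among them, a 6007-base transcript alone held 75.1% to 96.5% of the gene. It is the only annotated transcript that runs to 10528418, while the others end at 10526426 or before. Reads from that added 3′ end can only count for the middle start, so the shares do not measure use of the promoters. Transcripts of the upstream start summed to 0.424 ± 0.116 TPM in wild-type and 0.536 ± 0.248 TPM in Mir324-null mice (mean ± SD, n = 5). Those of the downstream start reached at most 0.202 TPM in any wild-type mouse and 0.282 TPM in any Mir324-null mouse.

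Among the dendritic cell members, Siglech (chromosome 7, 55768178 to 55778925, plus strand) was the 1 whose null mice all lay above the wild-type mean. It had 14.9, 14.9, 9.35, 9.61 and 13.3 TPM in wild-type mice 1 to 5, against 14.1, 22.6, 15.4, 19.6 and 13.8 TPM in null mice 1 to 5. Null mice 2, 3 and 4 exceeded every wild-type mouse, null mice 1 and 5 lay among them, and wild-type mice 3 and 4 were the 2 lowest. The difference was 0.43 (SE 0.177, interval 0.045 to 0.82, limma p 0.0315), and it failed the correction with an adjusted p of 0.386. The exact permutation test over all ways to divide the 10 mice into 5 and 5 gave a two-sided p of 0.0794, where the smallest it can give is 0.00794. The unadjusted limma p was above 0.05 without wild-type replicate 3 (0.0814), wild-type replicate 4 (0.0795), Mir324-null replicate 2 (0.0823) or Mir324-null replicate 4 (0.0739). It was lower than the main value, at 0.0075 after median ratio scaling, 0.0092 after quantile normalization, 0.0072 without the haemoglobin genes in the total and 0.0069 with coding transcripts alone, and the adjusted p ranged from 0.227 to 0.314 in these 4. Coding transcripts alone leave out a 2117-base transcript, annotated as a target of nonsense-mediated decay, that held 48.6% to 70.8% of the TPM of Siglech.

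Irf8 (chromosome 8, 120736358 to 120756694, plus strand), which also carries a miR-324-5p site, had 65.3, 61.9, 51.1, 45.0 and 61.1 TPM in wild-type mice. In null mice it had 62.2, 88.5, 60.9, 60.1 and 43.6 TPM. Null mouse 2 was the highest and null mouse 5 the lowest of all 10 mice. The difference was 0.12 (SE 0.168, interval -0.24 to 0.49, limma adjusted p 0.858), and without Mir324-null replicate 2 it was -0.0055. Flt3 (chromosome 5, 147330741 to 147400489, minus strand), the receptor of the cytokine that drives dendritic cell formation, had 4.04, 4.62, 3.32, 4.21 and 4.25 TPM in wild-type mice. Its null mice had 5.16, 8.02, 3.82, 4.96 and 2.84 TPM, with the same mice at both ends as Irf8. The wild-type mice were close together (SD 0.476) and the null mice more spread (SD 1.95). The difference was 0.17 (SE 0.202, interval -0.27 to 0.62, limma adjusted p 0.819), and it was 0.010 without Mir324-null replicate 2. Xcr1 (chromosome 9, 123852315 to 123862029, minus strand), the chemokine receptor with a miR-324-3p site, had 0.155, 0.413, 0.236, 0.131 and 0.159 TPM in wild-type mice 1 to 5, against 0.265, 0.342, 0.296, 0.202 and 0.289 TPM in null mice 1 to 5. Wild-type mouse 2 was the highest, and the exact permutation p of the difference of 0.073 was 0.302.

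**Figure D2:**
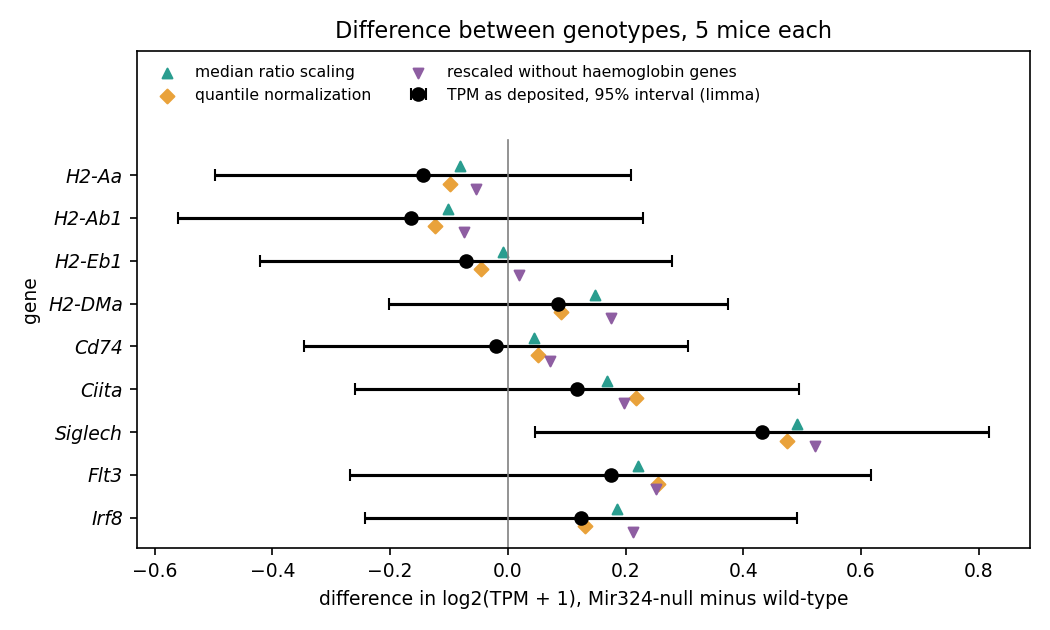
Difference in log2(TPM + 1), Mir324-null minus wild-type, for the 9 members tested. Black circles with bars are TPM as deposited with the 95% interval from limma (5 mice each), and coloured symbols are the estimate under 3 other scalings. The interval of Siglech lies above 0 and those of the other 8 span it, and the estimates of Cd74 and H2-Eb1 change sign between scalings.

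The class II genes varied together between mice, and H2-Aa, H2-Ab1, H2-Eb1 and Cd74 did so most closely. Correlations were taken over the 10 mice on log2(TPM + 1) for all 36 pairs of the 9 members tested, with permutation p-values adjusted by Benjamini-Hochberg over the 36 pairs. In the 15 pairs among H2-Aa, H2-Ab1, H2-Eb1, H2-DMa, Cd74 and Ciita, Pearson's r ranged from 0.617 to 0.968 with a median of 0.762. Spearman's rho ranged from 0.564 to 0.939, and the adjusted permutation p was under 0.05 for r in 8 pairs and for rho in 5. The 2 chains of one molecule, H2-Aa and H2-Ab1, had r = 0.957 (permutation p = 0.00023, adjusted 0.00207) and rho = 0.879 (permutation p = 0.00163, adjusted 0.0224). Without wild-type mice 1 and 2, the 2 farthest from the median of H2-Aa, r was 0.940. Cd74 and Ciita had r = 0.765 (permutation p = 0.00712, adjusted 0.0285) and rho = 0.782 (permutation p = 0.0107, adjusted 0.0641), and r = 0.740 without the 2 farthest mice. All pairs share the library total, so part of any common movement can come from the TPM scale.

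In the 3 pairs among Siglech, Flt3 and Irf8, r ranged from 0.676 to 0.840, and its adjusted permutation p was under 0.05 in 2, while that of rho was in 0. Flt3 and Irf8 had r = 0.840 (permutation p = 0.00445, adjusted 0.0229) and rho = 0.661 (permutation p = 0.0444, adjusted 0.114). Without null mice 2 and 5, the 2 farthest from the median of Flt3, r was 0.369. These mice were picked as the extremes of Flt3, which narrows its range, so the fall cannot tell whether the relation rests on them. Siglech and Irf8 had r = 0.764 (permutation p = 0.0133, adjusted 0.0478) and rho = 0.552 (permutation p = 0.106, adjusted 0.201), with r = 0.588 without wild-type mouse 3 and null mouse 2. In the 18 pairs that cross from one group to the other, r ranged from -0.226 to 0.643 with a median of 0.080, and 0 passed adjustment. H2-Aa and Siglech had r = 0.103 (permutation p = 0.785, adjusted 0.885) and rho = 0.261 (permutation p = 0.474, adjusted 0.609), and r = 0.069 without the 2 farthest mice. Whether the correlations within and across the groups differ was not tested. Beside the class II genes, the B cell markers, which include cells that carry class II, summed to 404, 396, 452, 366 and 317 TPM in wild-type mice 1 to 5. They summed to 196, 291, 391, 252 and 368 TPM in null mice 1 to 5. Wild-type mouse 3 had the highest B cell sum, followed by wild-type mice 1 and 2. The macrophage markers summed to 893, 1338, 1055, 934 and 991 TPM in wild-type mice 1 to 5. In null mice 1 to 5 they summed to 1035, 1053, 1051, 949 and 1158 TPM. Their sum was highest in wild-type mouse 2, followed by null mouse 5, and lowest in wild-type mouse 1. The part of B cells or macrophages in the class II level was not tested. Markers of monocytes and progenitors summed to 3371, 1963, 2314, 2379 and 2726 TPM in wild-type mice 1 to 5. In null mice 1 to 5 these markers summed to 3106, 3138, 2803, 2059 and 1607 TPM. Wild-type mouse 1 had the highest sum, followed by null mouse 2, and null mouse 5 the lowest. Their mean log2(TPM + 1) was highest in null mouse 2 (7.12) and lowest in null mouse 5 (6.39). The part of such cells in Siglech, Flt3 and Irf8 was not tested.

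**Figure D3:**
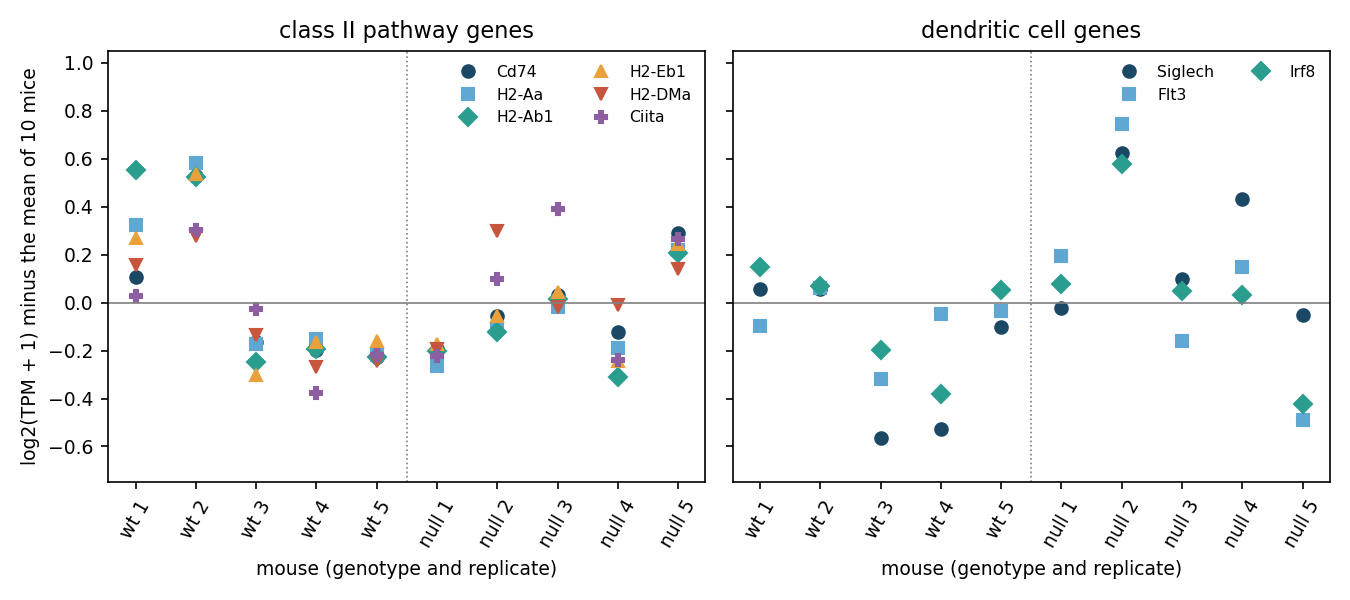
Log2(TPM + 1) of each gene in each mouse minus its mean over the 10 mice, for the class II pathway genes (left) and Siglech, Flt3 and Irf8 (right). The dotted line separates wild-type from Mir324-null mice. The class II chains are high in wild-type mice 1 and 2 and null mouse 5, and the dendritic cell genes are high in null mouse 2.

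The genes whose pattern over the 10 mice was most like that of a member were taken as the 5 with the highest r among the 13832 other genes tested, members left out. As they were picked for their r, they carry no p. For Irf8 these were Nxpe1-ps (r = 0.992, rho 0.891), Tifab (0.964, rho 0.697), Ass1 (0.964, rho 0.806), Tacc1 (0.961, rho 0.915) and Pld4 (0.956, rho 0.976). For Siglech they included Gm20369 (0.900), Ppfia4 (0.888), Mtmr14 (0.872) and Sec23b (0.872). Those of Flt3 included Kmo (0.898), Tspan9 (0.865), Gm21370 (0.864) and Usp8 (0.862), and those of H2-Ab1 were Uggt2 (0.908), Elob (0.902), Cd8a (0.892), 1810043G02Rik (0.891) and Smagp (0.891). Without the 2 mice farthest from the median, r stayed at 0.985 for Irf8 with Nxpe1-ps. For H2-Ab1 without wild-type mice 1 and 2, r was 0.544 with Uggt2, 0.690 with Elob and 0.707 with Cd8a. It was 0.897 with 1810043G02Rik and 0.508 with Smagp. The gene total of H2-Ab1 was used, which in wild-type mouse 1 includes 171.6 TPM of a 515-base transcript described below.

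The transcripts to which the class II abundance was assigned differed in wild-type mouse 1. A 515-base transcript of H2-Ab1, at the 3′ end of the gene and annotated as a retained intron, had 171.6 TPM in this mouse, 38.4% of the gene. In the other 9 mice it had 15.3 to 37.5 TPM, 5.98% to 12.2%. The 826-base coding transcript of H2-Aa, which has 4 exons in place of the 5 of the main 1128-base transcript, had 214 TPM in wild-type mouse 1 (43.5% of H2-Aa) and 34.5 to 87.9 TPM in the others (10.2% to 18.1%). The main transcripts gave another order of mice. The 1212-base coding transcript of H2-Ab1 had 217 TPM in wild-type mouse 1, the lowest of its group, and 393 TPM in wild-type mouse 2, with 198 to 317 TPM in the null mice. The 1128-base transcript of H2-Aa had 276 TPM in wild-type mouse 1 and 499 TPM in wild-type mouse 2, with 272 to 381 TPM in the null mice. Counted without its 515-base transcript, H2-Ab1 averaged 278 ± 70.6 TPM in wild-type mice, and 263 ± 37.3 TPM in the Mir324-null mice (SD, n = 5), -0.062 apart on the log2(TPM + 1) scale (exact permutation p = 0.730). This sum was chosen after the transcripts had been seen.

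**Figure D4:**
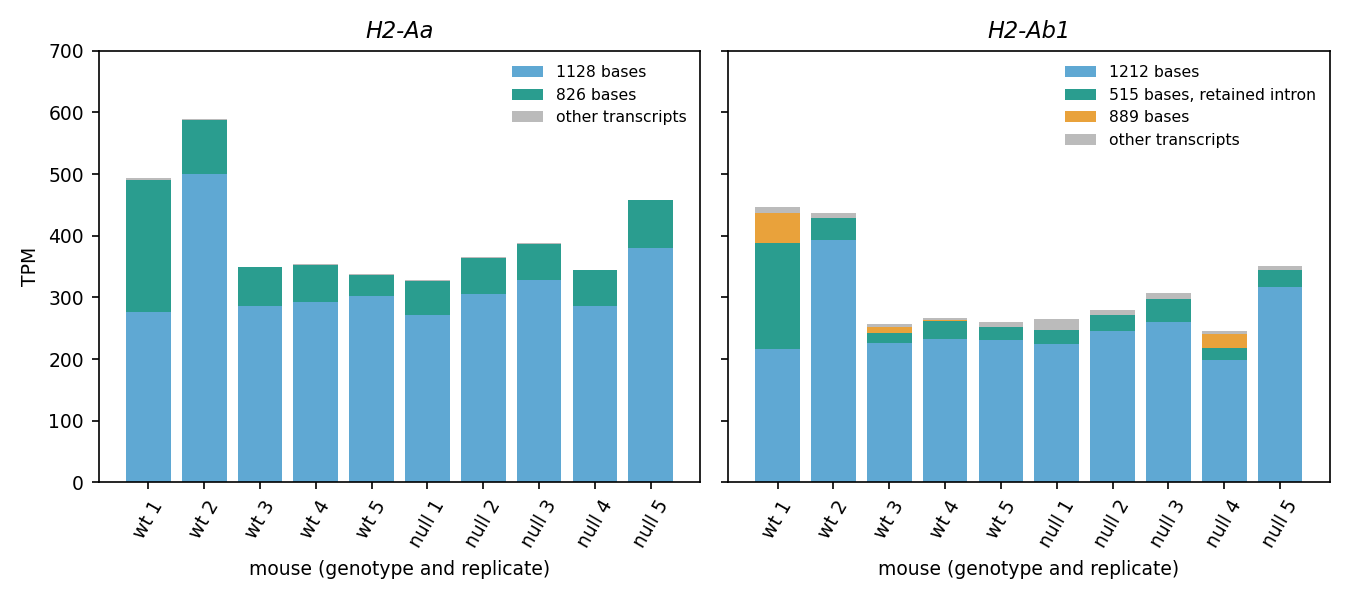
TPM of H2-Aa (left) and H2-Ab1 (right) in each mouse, stacked by annotated transcript, named by length. In wild-type mouse 1 the sum is made up by the 826-base transcript of H2-Aa and the 515-base transcript of H2-Ab1 to a larger share than in the other 9 mice, while wild-type mouse 2 is high in the 1128-base and 1212-base transcripts.

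In H2-Eb1, 82.3% to 89.5% of the abundance of each mouse was assigned to a 1082-base transcript that the annotation lists as a target of nonsense-mediated decay. Its 1669-base coding transcript held 9.24% to 14.8%. In Siglech, a 2117-base transcript, also listed as a decay target, held 48.6% to 70.8% of the gene. The share of Cd74 assigned to a 1410-base transcript with 9 exons, in place of the 8 of the main one, was 16.1% to 21.0% in the 10 mice. These biotypes are those of GENCODE M21 and not of the index used by the authors, and kallisto divides reads among transcripts that overlap, so the shares are estimates.

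The other genes of the pathway were read from lists given by name, for counts and medians beside those of all genes (5534 higher, 8307 lower, median -0.045). Of the 10 genes of class II molecules and loading, all 10 passed the filter, 2 were higher and 8 lower in null mice with a median difference of -0.082, and 0 were called. The lowest p-values were those of Ifi30, a thiol reductase of the loading compartment (155 ± 21.95 TPM in wild-type mice, 133 ± 20.7 TPM in null mice, SD, n = 5, limma adjusted p 0.550), and of the lysosomal proteases Lgmn (94.7 ± 11.6 and 85.6 ± 3.08 TPM, adjusted p 0.609) and Ctsl (91.6 ± 13.4 and 83.0 ± 8.22 TPM, adjusted p 0.716). Of the 7 genes of factors that bind class II promoters, 6 were higher and 1 lower, with a median of 0.076 and 0 called. The 1 that was lower was Rfx5, which binds the X box (7.46 ± 2.39 and 5.67 ± 1.41 TPM, SD, n = 5, limma adjusted p 0.599). Nfya, a subunit of the Y box factor, had 37.9 ± 6.63 TPM in controls and 44.1 ± 8.42 TPM in the null group (SD, n = 5, limma adjusted p 0.640). Its partner subunit Nfyc had 41.5 ± 5.59 and 44.3 ± 2.90 TPM (limma adjusted p 0.789).

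Of 9 genes of the interferon gamma response that passed the filter, 5 were higher and 4 lower (median 0.017), with 0 called. Irf1, a transcription factor of this response, averaged 40.4 ± 5.30 and 38.3 ± 6.39 TPM (SD, n = 5, limma adjusted p 0.885), and Socs1, an inhibitor of the pathway, 3.23 ± 0.785 and 2.34 ± 0.347 TPM (limma adjusted p 0.460). Ifng itself averaged 0.176 and 0.223 TPM, below the filter. Of 5 costimulatory genes, 3 were higher and 2 lower (median 0.017), with 0 called, and Cd80 had 1.95 ± 0.527 and 2.90 ± 1.34 TPM (SD, n = 5, limma adjusted p 0.612). Cd40, the receptor for help from T cells, had 5.33 ± 0.900 and 5.39 ± 2.15 TPM (limma adjusted p 0.973), and Icosl, the ligand of the T cell receptor ICOS, 9.96 ± 2.37 and 9.24 ± 1.64 TPM (limma adjusted p 0.923).

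Other markers of plasmacytoid dendritic cells lay on both sides of 0. Of 12, all 12 passed the filter, 7 were higher and 5 lower in null mice with a median of 0.035, and 0 were called. Their sum was 271 to 338 TPM in wild-type mice, and 228 to 379 TPM in the Mir324-null mice. At an unadjusted limma p under 0.05, Klk1 was higher, at 1.68 ± 0.965 and 2.997 ± 0.363 TPM (difference 0.65, adjusted p 0.342). Spib, a factor of plasmacytoid dendritic cells and of B cells, was lower at 51.3 ± 6.53 and 36.8 ± 7.93 TPM (difference -0.48, limma adjusted p 0.310). Pacsin1 was lower as well, at 3.20 ± 0.911 and 1.91 ± 0.634 TPM (difference -0.53, limma adjusted p 0.351), all with SD and n = 5. The B cell markers, beside which Spib can be read, had 1 of 10 higher and 9 lower (median -0.39, 0 called), and the part of B cells in Spib was not tested.

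Of the markers of type 1 conventional dendritic cells, 7 of 8 passed the filter, 3 were higher and 4 lower (median -0.046), and 0 were called. Cadm1, an adhesion molecule of this subset, averaged 31.4 ± 6.22 and 21.2 ± 6.26 TPM (SD, n = 5, difference -0.56, limma p 0.0127, adjusted 0.338). Markers of osteoblasts and osteocytes were lower in null mice in 10 of 10 (median -0.90) and those of chondrocytes in 6 of 7 (median -0.66), with 0 called in either, and their part in Cadm1 was not tested. Naaa averaged 26.9 ± 4.00 and 30.1 ± 5.76 TPM and Wdfy4, needed for presenting antigens of dead cells, 18.4 ± 2.19 and 17.5 ± 2.90 TPM (limma adjusted p 0.762 and 0.892). Itgae, an integrin chain, was below the filter at 0.148 and 0.220 TPM. Of 9 genes of type 2 or shared conventional dendritic cells, 8 passed, 6 were higher and 2 lower (median 0.058), with 0 called, and Clec4a4 was below the filter at 0.258 and 0.214 TPM. Cd24a, which is also a gene of red cell precursors, averaged 1091 ± 214 and 1325 ± 121 TPM (difference 0.30, limma p 0.0480, adjusted 0.427). The erythroid markers were higher in null mice in 7 of 7 (median 0.44), and their part in Cd24a was not tested. Irf4 averaged 15.6 ± 3.62 and 12.9 ± 4.85 TPM and Clec10a 12.0 ± 3.04 and 13.3 ± 2.86 TPM (limma adjusted p 0.700 and 0.856).

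Of 6 genes of mature dendritic cells, 3 passed the filter and all 3 were lower in null mice (median -0.46), with 0 called. Cacnb3 averaged 5.57 ± 1.60 and 3.28 ± 2.06 TPM (SD, n = 5, limma p 0.0286, adjusted 0.380) and Fscn1, an actin-bundling protein of mature dendritic cells and other cells, 15.6 ± 4.55 and 10.9 ± 2.65 TPM (limma p 0.0491, adjusted 0.429). Ccr7, the receptor that guides mature dendritic cells to lymph nodes, averaged 4.48 ± 0.979 and 3.94 ± 1.30 TPM (limma adjusted p 0.818). The osteoblast and chondrocyte markers just given were lower as well, and their part in these 3 genes was not tested. Il12b, Ccl17 and Ccl22 averaged under 1 TPM in both genotypes. Among macrophage markers, 8 of 10 were higher and 2 lower (median 0.059, 0 called), and their sum was 893 to 1338 TPM in wild-type mice, and 949 to 1158 TPM in the Mir324-null mice.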

How the data were processed

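The deposited table holds TPM values per mouse transcript, 1 column per mouse. Per the submitters' processing notes, kallisto and DESeq2 were used and GRCh38, a human build, is named, although the rows are mouse transcripts. The index, trimming and use of strand are not given in the sources used here. Of 116912 transcripts, 115440 matched GENCODE M21 (GRCm38) without version numbers and were summed to 35705 genes. The unmatched ones, not used here, held 0.275% to 0.356% of the TPM. Genes that reached 1 TPM on average over the mice were compared as log2(TPM + 1) with limma 3.58.1 (trend, two-sided, no covariate) in R 4.3.3, which was checked on simulated data. Exact permutation tests, correlations (100000 resamples) and searches used scipy 1.17.1, pandas 2.3.3 and numpy 2.4.6 under Python 3.11.15. The 3′ UTR searched was the longest of a gene's coding transcripts. Marchf1 is March1 in the annotation. Members and lists were chosen with earlier results of these data known. From each pathway list the 3 genes with the smallest p were named, with any below the filter, and a few genes that the naming rules chose are not reported here. Labels share replicate numbers but do not say that they pair mice. Besides leaving out each mouse, 11 alternatives were run.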

Additional observations from a re-analysis of the deposited data

Results flagged for a closer look

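In 88 groups of 5 mice checked for a single mouse far from the rest, 8 stood out. The rule flags about 1 in 20 groups when the values are independent and normally distributed. The groups checked share mice and hold genes that varied together, so 8 of 88 cannot be judged against that rate. Wild-type mouse 2 was the one in 5 of the 8, all above its group. It had 393 TPM of the 1212-base transcript of H2-Ab1 (217 to 232 TPM in the other wild-type mice), 499 TPM of the 1128-base transcript of H2-Aa (276 to 302 TPM), 59.4 TPM of the 1669-base transcript of H2-Eb1 (27.0 to 33.8 TPM), 210.4 TPM of the 1410-base transcript of Cd74 (116 to 139.6 TPM) and 115 TPM of Lgmn (86.9 to 93.3 TPM). Wild-type mouse 1 had 171.6 TPM of the 515-base transcript of H2-Ab1, with 15.3 to 36.1 TPM in the others. Null mouse 5 had 77.0 TPM of the 826-base transcript of H2-Aa (55.1 to 58.4 TPM in the other null mice), and null mouse 4 had 3.63 TPM of Klk1 (2.71 to 2.94 TPM).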

How the results depend on the processing

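Of the 9 members tested, H2-Aa, H2-Ab1, H2-DMa, Ciita, Siglech and Flt3 kept their direction in every alternative that could be run (a mean of at least 5 TPM leaves out Ciita and Flt3), and no member passed adjustment in any. The difference of Cd74 turned to 0.044 after median ratio scaling, 0.052 after quantile normalization and 0.071 after rescaling without the haemoglobin genes, and that of H2-Eb1 to 0.019 after the last. When single mice were left out, Cd74 turned to 0.0051 (without wild-type replicate 1), 0.11 (wild-type replicate 2), 0.026 (Mir324-null replicate 1) and 0.0093 (Mir324-null replicate 4), H2-Eb1 to 0.054 (wild-type replicate 2) and Irf8 to -0.0055 (Mir324-null replicate 2). The cause was not tested. The ranges over single mice left out were -0.16 to 0.054 for H2-Eb1, -0.095 to 0.11 for Cd74 and -0.0055 to 0.25 for Irf8. They were -0.22 to -0.017 for H2-Aa, -0.25 to -0.047 for H2-Ab1, 0.022 to 0.17 for H2-DMa, 0.035 to 0.21 for Ciita and 0.010 to 0.32 for Flt3. Leaving out single mice gave 0 to 1 genes called over all genes, 0 members called, and 0 to 1 members at an unadjusted p under 0.05. With the replicate block 0 genes were called, 1 member had an unadjusted p under 0.05, and the adjusted p of Siglech was 0.579. Deviations of same-numbered mice correlated between -0.144 and 0.0564, so the numbers were not taken to pair the mice, and no mouse correlated best with its own number. Siglech lay between 0.33 (without Mir324-null replicate 2) and 0.61 (coding transcripts only, which leaves out its 2117-base transcript), with an adjusted p of 0.227 to 0.621. Depth is unknown, so the precision of low genes such as Xcr1 cannot be given.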
